A study of Mus musculus with 16 samples.

Results

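The collagen chains are the 44 genes, of 23279 with a symbol on these arrays, whose annotated symbol is Col, a type number, a and a chain number. Membership rested on names alone and no measured value, but the set and its classes were chosen with earlier results of these data known. By class there were 11 fibrillar chains, 6 type IV chains of basement membranes, 2 multiplexins, 3 short network-forming chains, 6 type VI chains, 9 fibril-associated chains (FACIT), 4 membrane-spanning chains, the chains Col7a1 and Col28a1, and Col26a1. Liver RNA of male mice aged 16 months had been hybridised to one-colour arrays, 1 array per sample, and values are on a log2 scale. The 3 control livers came from mice (numbers 10, 11 and 12) that the labels describe only as not deleted. The 5 adjacent livers (mice 81, 121, 123, 124 and 1931) were non-tumoral tissue of Axin1-deleted mice, bred from Axin1 fl/fl animals and the Cre line Alfp-Cre, which is active in embryonic hepatocytes. The 8 tumours came from 6 such mice (81, 90, 93, 121, 123 and 124), and mouse 121 gave 3 of them, called here the unnumbered tumour, tumour 2 and tumour 3. Their values were averaged, so that n counts mice. Since the Cre marks the hepatocyte lineage, stellate cells and endothelium, which make much of the liver's collagen, should keep the gene by design. Axin1 was not measured by cell type here.

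Collagens are trimers of chains wound into a triple helix. Types I, III and V assemble into the fibrils of portal tracts and scars, type IV into the sheet-like network of basement membranes, type VI into beaded microfilaments, and FACIT chains decorate fibril surfaces. In normal liver stellate cells, portal fibroblasts and endothelium are the main sources, sinusoids lack a continuous basement membrane, and Col18a1, the precursor of endostatin, is made largely by hepatocytes.

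The regulatory sequence was examined for the chains that had a promoter window, which Col1a1 and Col12a1 did not. RefSeq promoter windows (GRCm38.p6) were at hand for 35 of the 44 genes, in 38 entries, and the 250 bases before the annotated start were searched on both strands for the TATA box (TATAAA), the CCAAT box (CCAAT) and the GC box (GGGCGG). The windows of 3 chains that were higher in most tumours are shown, 1 from a type I chain, 1 from the type III chain and 1 from a network-forming chain, with matches in capitals. They lie at chr6:4505368-4505617 (plus strand), chr1:45311288-45311537 (plus strand) and chr16:57754738-57754987 (minus strand).
Col1a2: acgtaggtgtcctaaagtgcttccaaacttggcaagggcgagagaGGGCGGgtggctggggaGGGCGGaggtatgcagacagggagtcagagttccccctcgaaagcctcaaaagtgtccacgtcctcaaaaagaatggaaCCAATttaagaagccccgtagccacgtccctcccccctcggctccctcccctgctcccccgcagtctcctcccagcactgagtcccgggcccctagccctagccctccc
Col3a1: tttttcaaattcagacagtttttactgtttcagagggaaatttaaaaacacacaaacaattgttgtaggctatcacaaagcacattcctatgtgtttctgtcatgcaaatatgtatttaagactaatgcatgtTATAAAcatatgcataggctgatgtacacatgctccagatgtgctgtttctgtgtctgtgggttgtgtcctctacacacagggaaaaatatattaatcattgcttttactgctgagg
Col8a1: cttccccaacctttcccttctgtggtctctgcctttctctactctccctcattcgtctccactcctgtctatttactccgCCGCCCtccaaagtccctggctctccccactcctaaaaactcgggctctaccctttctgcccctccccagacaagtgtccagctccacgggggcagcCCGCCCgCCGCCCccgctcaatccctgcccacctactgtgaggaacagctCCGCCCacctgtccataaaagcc
The window of Col1a2 held 2 GC boxes and 1 CCAAT box, that of Col3a1 held 1 TATA box, and that of Col8a1 held 4 GC boxes. Of other chains higher in most tumours, the window of Col15a1 held 0 matches and that of Col4a1 only 1 CCAAT box. That of Col4a2 held 2 GC boxes and 1 CCAAT box. GC boxes stood in 57.9% of the 38 collagen windows against 32.7% of all 32851 windows of this length, CCAAT boxes in 34.2% against 33.8%, and TATA boxes in 13.2% against 12.4%. A match describes letters and is not evidence of a factor bound there. Col4a1 and Col4a2 are arranged head to head on chromosome 8, with annotated starts 21 bases apart. Their windows of 300 bases, which run past the start into each gene, share 78 bases. The 250 bases before each start do not overlap.

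Axin1 itself lay between 5.07 and 5.48 in controls, 3.90 and 4.39 in adjacent livers and 3.95 and 4.81 in tumours. Across genes, arrays of one group correlated at r between 0.945 and 0.989, and genes are not independent replicates. Tumour 93 and control 10 stood apart. Mean levels of 6 macrophage markers were 1.96 above the control mean in control 10 and -0.55 and -1.41 from it in the other controls. Tumour 93 was picked out from its collagen values, described below, so an adjusted p without it rests on a choice made on the outcome, and the range over all values left out in turn stands beside it. Albumin (Alb) and transthyretin (Ttr), defining hepatocyte products, were at group means between 12.4 and 12.7 in all 3 groups. The series labels do not say whether adjacent liver 1931 and tumour 93 are from 1 animal.

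The first comparison was between tumours and the liver around them. Col1a1, Col1a2, Col3a1, Col4a1, Col4a2, Col8a1, Col12a1 and Col15a1 were at 1.71 to 2.57 times their adjacent level on average, but none of the 44 passed an adjusted p under 0.05 over all genes (limma, Benjamini-Hochberg; 0.155% of all genes passed). At an unadjusted p under 0.05, 9 chains were higher and 2 lower, which is 20.5% and 4.55% of the 44. The same shares over all genes were 6.95% and 8.32%. The median log2 difference was 0.05 over the 44 chains, 28 of them above 0, and -0.03 over all genes, of which 44% were above 0. In tissue RNA a larger number of collagen-making cells and more RNA per cell cannot be told apart.

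The value of 1 mouse in 1 group was left out in turn, 14 times in all, and 0 to 7 chains then passed. The 7 were Col15a1, Col1a1, Col1a2, Col3a1, Col4a1, Col4a2 and Col8a1, all without tumour 93, and 0 passed in each of the other fits. Without tumour 93, 743 of all genes passed, against 36 with every mouse. Where the animal entered the fit as a random replicate block, Col4a1 passed (adjusted p = 0.0418, limma). In that fit 206 of all 23279 genes passed. Tumours of the same mouse entered it as separate values. The within-mouse correlation of the block was only 0.073, so these tumours counted nearly as separate mice. With the mouse as a fixed replicate block in the 4 mice that gave both tissues, 0 chains passed.

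**Figure D1:**
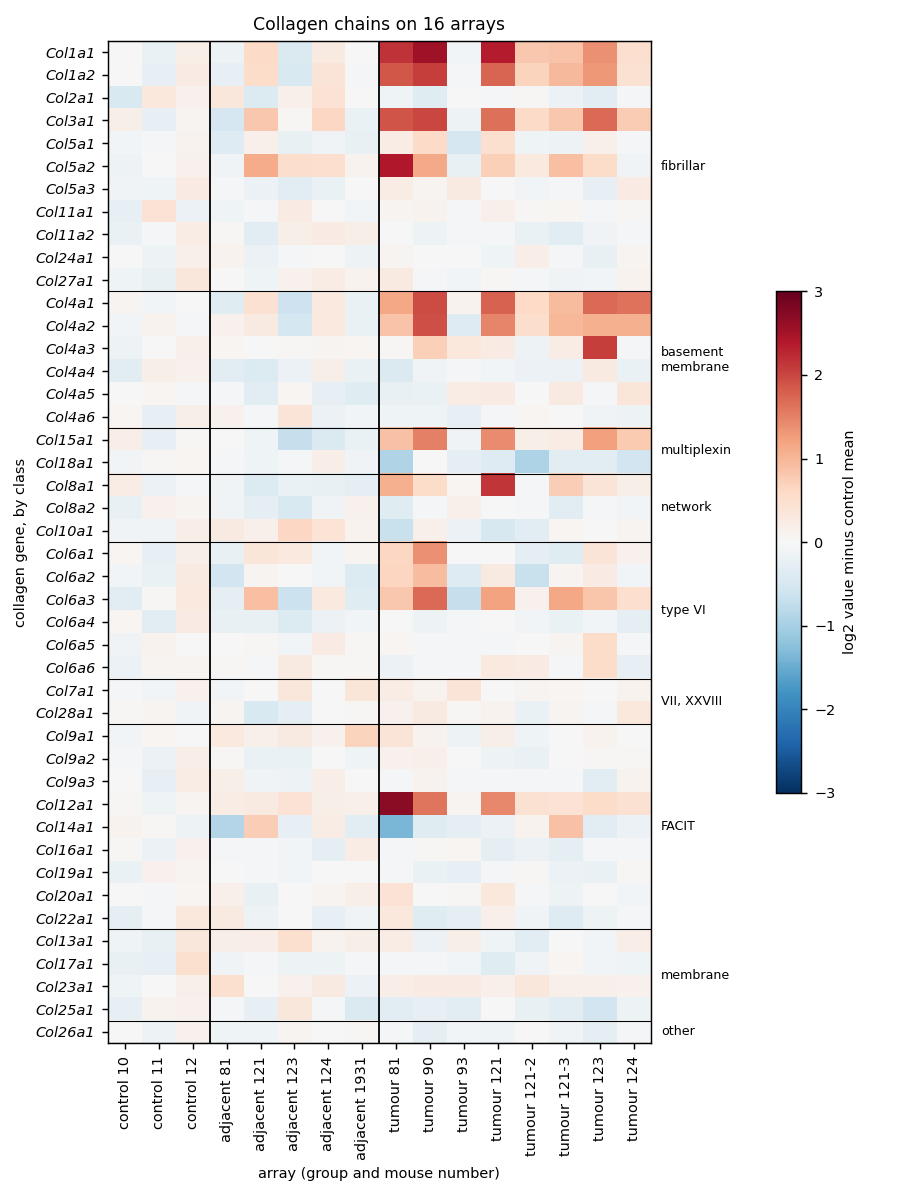
Log2 value minus the control mean (colour) for each of the 44 collagen genes (rows, by class) on each of the 16 arrays (columns, by group and mouse number). High values stand in the tumour columns at Col1a1, Col1a2, Col3a1, Col4a1, Col4a2 and Col15a1, tumour 93 is close to the controls, and most other rows lie near 0.

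Type I collagen, the main fibrillar collagen of scar tissue, is a heterotrimer of the products of Col1a1 and Col1a2. Col1a1 was at 5.26, 5.04 and 5.42 in controls 10, 11 and 12 and at 5.09, 5.82, 4.81, 5.50 and 5.24 in adjacent livers 81, 121, 123, 124 and 1931. In the tumours it ranged from 5.16 (tumour 93) over a median of 6.36 to 7.78 (tumour 90). Tumours 90, 81, the unnumbered tumour of mouse 121 and tumour 123 were the high ones, and the values of tumours 93 and 124 fell within the range of adjacent livers. Adjacent liver averaged 5.29 ± 0.39 (SD, n = 5) and the tumour mice averaged 6.55 ± 0.98 (SD, n = 6), a log2 difference of 1.25 (SE 0.38, adjusted p = 0.137, limma), and without tumour 93 it was 1.53 (adjusted p = 0.0249). Over the 14 values left out in turn its adjusted p ranged from 0.0249 to 0.287. Tumour means were above the adjacent mean in 5 of 6 mice.

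Col1a2 followed the same pattern. It was at 4.77, 4.51 and 5.02 in the controls and at 4.53, 5.32, 4.31, 5.15 and 4.72 in the adjacent livers, in the same order of mice. The tumours ran from 4.71 (tumour 93) over a median of 5.91 to 6.85 (tumour 90). Tumour 124, at 5.22, was again within the adjacent range. The log2 difference was 1.09 (SE 0.33, adjusted p = 0.14, limma), and without tumour 93 it was 1.32 (adjusted p = 0.0267). The range over all values left out in turn was 0.0267 to 0.296 in adjusted p.

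Col3a1, whose product forms thinner fibrils beside type I, was at 5.82, 5.39 and 5.74 in controls and at 5.14, 6.46, 5.68, 6.27 and 5.44 in adjacent livers. Its tumour values ran from 5.49 (tumour 93) over a median of 6.88 to 7.65 (tumour 90). Tumours 90, 81, 123 and the unnumbered tumour of mouse 121 exceeded all 8 non-tumour arrays. The others overlapped with adjacent liver. The difference of means was 1.05 (SE 0.36, adjusted p = 0.169, limma), and without tumour 93 it was 1.32 (adjusted p = 0.0278), with a range of 0.0278 to 0.329 in adjusted p over all values left out in turn.

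The remaining fibrillar chains did not share this size of difference. Type V chains regulate the start and width of fibrils: Col5a1 differed by 0.23 (SE 0.16), Col5a2 by 0.30 (SE 0.38) and Col5a3 by 0.24 (SE 0.12). Col5a2 was at 3.98, 4.15 and 4.25 in controls and at 4.03, 5.23, 4.66, 4.63 and 4.23 in adjacent livers, and the tumours reached from 3.89 over a median of 4.75 to 6.53. Tumour 81 alone held that highest value, and without it the tumour minus adjacent difference of Col5a2 was -0.03. The chains known from cartilage, Col2a1, Col11a1 and Col11a2, lay at -0.26, 0.04 and -0.15, and Col24a1 and Col27a1 at 0.04 and -0.05. Over the 11 fibrillar chains the median was 0.23 and 8 were above 0.

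Among the basement membrane chains, Col4a1 and Col4a2, the chains of the widespread type IV trimer, stood out. Col4a1 was at 5.05, 4.90 and 4.99 in controls and at 4.61, 5.44, 4.37, 5.28 and 4.78 in adjacent livers. Its tumour values ran from 5.09 (tumour 93) over a median of 6.38 to 6.94 (tumour 90). Every tumour except tumour 93 exceeded all 8 non-tumour arrays. The means were 4.90 ± 0.45 (SD, n = 5) and 6.26 ± 0.66 (SD, n = 6), which is 2.57-fold (log2 difference 1.36, SE 0.29, adjusted p = 0.0634, limma), and 6 of 6 tumour mice were above the adjacent mean. Without tumour 93 the difference was 1.59 (adjusted p = 0.00471), and over all values left out in turn the adjusted p ranged from 0.00471 to 0.167.

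Col4a2 was at 4.24, 4.43 and 4.30 in controls and at 4.46, 4.58, 3.80, 4.61 and 4.13 in adjacent livers. In the tumours it ran from 3.93 (tumour 93) over a median of 5.35 to 6.26 (tumour 90). As for Col4a1, the other 7 tumour arrays were above every non-tumour array. The difference was 0.93 (SE 0.30, adjusted p = 0.152, limma), and 1.19 without tumour 93 (adjusted p = 0.0113; range over all values left out 0.0113 to 0.324).

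The other type IV chains, restricted to specialised basement membranes such as that of the kidney glomerulus, differed less. Col4a3 was between 3.52 and 3.83 in the 8 non-tumour arrays, and tumour 123 alone reached 5.74, tumour 90 being next at 4.39. Its mean difference was 0.48 (SE 0.29). Col4a4 was at 0.08, Col4a5 at 0.24 and Col4a6 at -0.17. Col4a3 and Col4a4 adjoin each other in the genome, as do Col4a5 and Col4a6, and unlike Col4a1 and Col4a2 neither pair had both members at an unadjusted p under 0.05.

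The multiplexins, which sit at the boundary of basement membrane and stroma, differed in opposite directions. Col15a1 was at 4.73, 4.28 and 4.57 in controls and at 4.52, 4.39, 3.83, 4.10 and 4.34 in adjacent livers, and in tumours it ran from 4.42 (tumour 93) over a median of 5.36 to 6.03 (tumour 90). Tumours 93 and 2 of mouse 121 overlapped with controls, while the other 6 arrays exceeded every non-tumour array. The log2 difference was 1.11 (SE 0.23, adjusted p = 0.0634, limma) and 1.29 without tumour 93 (adjusted p = 0.00531; range over all values left out 0.00531 to 0.167).

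Col18a1 was at 8.23, 8.37 and 8.38 in controls and at 8.29, 8.21, 8.30, 8.52 and 8.23 in adjacent livers. The tumours ran from 7.41 (tumour 2 of mouse 121) over a median of 7.97 to 8.31 (tumour 90). Every tumour except tumour 90 was below all 8 non-tumour arrays, and tumour 90 was also the highest array in Col1a1, Col1a2, Col4a1 and Col4a2. The difference was -0.42 (SE 0.14, adjusted p = 0.156, limma), or a 1.34-fold lower mean. Over the values left out in turn its adjusted p ranged from 0.0896, without tumour 90, to 0.295. The mean of 6 hepatocyte markers, taken minus the control mean, was between -0.30 and 0.00 in the 8 tumours, between -0.10 and 0.13 in adjacent livers and between -0.17 and 0.12 in controls, and their part in the result was not tested.

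Of the network-forming chains, Col8a1, a product of vascular and mesenchymal cells, was at 5.04, 4.63 and 4.77 in controls and at 4.70, 4.39, 4.63, 4.59 and 4.52 in adjacent livers. The tumours ran from 4.77 (tumour 2 of mouse 121) over a median of 5.28 to 6.95 (the unnumbered tumour of mouse 121). All 8 tumours were above all 5 adjacent livers, but 3 of them were below control 10. The difference was 0.78 (SE 0.17, adjusted p = 0.0718, limma), and 0.87 without tumour 93 (adjusted p = 0.0166; range over all values left out 0.0166 to 0.174). Col8a1 was the 1 chain of 44 whose tumour and adjacent mice did not overlap (2.27%, against 1.12% of all genes higher without overlap and 2.23% in either direction).

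Col10a1, known from hypertrophic cartilage, was lower in tumours by 0.46 (SE 0.15, adjusted p = 0.154, limma). It was at 4.42, 4.41 and 4.72 in controls and at 4.78, 4.67, 5.14, 4.92 and 4.63 in adjacent livers, while tumours ran from 3.85 (tumour 81) over a median of 4.42 to 4.67 (tumour 90). Against controls the difference was -0.15 (SE 0.17), so tumours and controls overlapped widely. Col8a2 differed by 0.07 (SE 0.12).

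**Figure D2:**
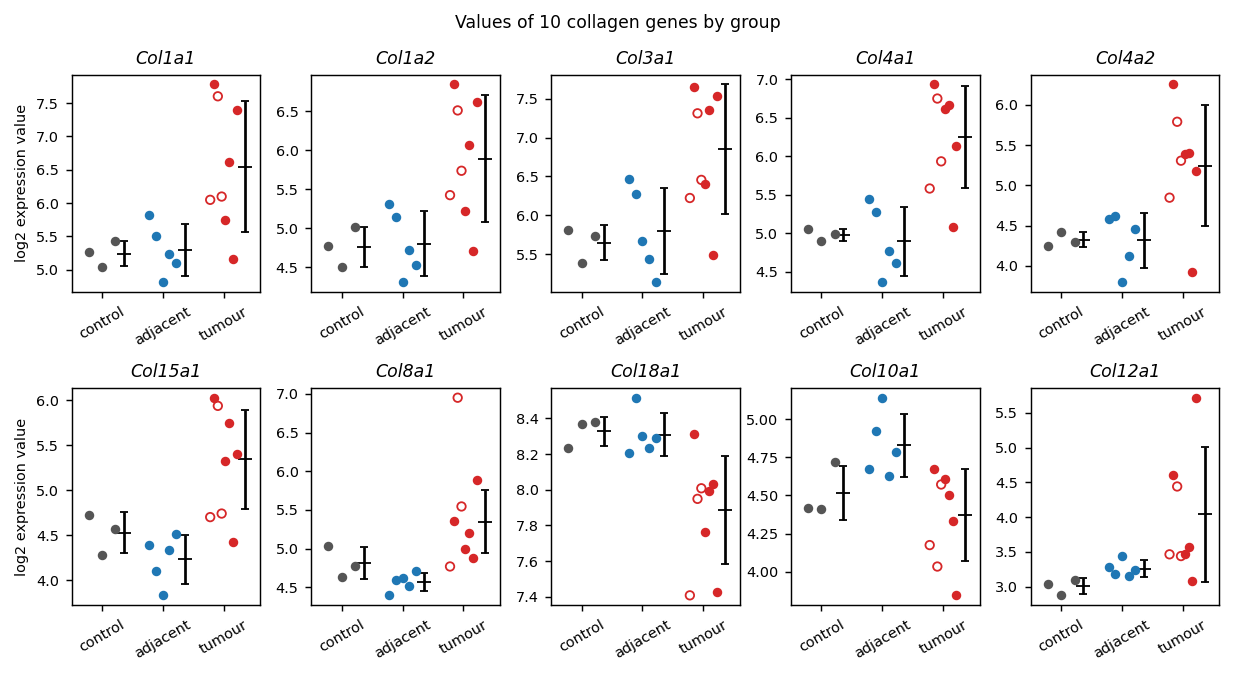
Log2 expression values of 10 collagen genes by group. Each point is 1 array, open circles are the 3 tumours of mouse 121, and the bar beside each group is the mean ± SD over mice (n = 3 controls, 5 adjacent livers and 6 tumour mice, with mouse 121 averaged). Tumour points spread widely and reach above non-tumour points in Col1a1, Col1a2, Col3a1, Col4a1, Col4a2 and Col15a1, and lie mostly below them in Col18a1. Vertical axes differ between genes and do not start at 0.

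Type VI chains were higher by smaller amounts: Col6a3 by 0.68 (SE 0.35), Col6a2 by 0.41 (SE 0.22) and Col6a1 by 0.30 (SE 0.23). None had an unadjusted p under 0.05. Their highest values were all in tumour 90, at 6.81 for Col6a3, 6.04 for Col6a2 and 6.18 for Col6a1. Tumour 93, at 4.42, had the lowest Col6a3 value of all 16 arrays. Col6a4, Col6a5 and Col6a6 were at 0.11, 0.03 and -0.04.

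FACIT chains were largely level. The exception was Col12a1, which coats fibrils under mechanical load, at 3.04, 2.88 and 3.10 in controls, 3.24, 3.28, 3.45, 3.19 and 3.15 in adjacent livers, and from 3.09 over a median of 3.52 to 5.72 in tumours. Tumour 81 held the top value, followed by tumour 90 at 4.61 and the unnumbered tumour of mouse 121 at 4.44. The log2 difference was 0.78 (SE 0.35, adjusted p = 0.307, limma). Without tumour 81 it was 0.44 (adjusted p = 0.351; range over all values left out 0.134 to 0.451). Col14a1, a FACIT chain of quiescent connective tissue, differed by -0.27 (SE 0.28) and was lowest of all arrays in the same tumour 81, at 4.61. The other 7, Col9a1, Col9a2, Col9a3, Col16a1, Col19a1, Col20a1 and Col22a1, lay between -0.23 and 0.15.

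Membrane-spanning chains, found on neurons and epithelia, lay between -0.21 (Col25a1) and 0.06 (Col23a1). Col7a1, the anchoring fibril chain of skin, was at 0.02 and Col26a1 at -0.11. Col28a1 was 0.24 higher (SE 0.11), at 2.24 to 2.80 in adjacent livers and 2.51 to 3.02 in tumours. That is near the bottom of the scale, where the processing compresses differences. Of the 44 chains, 28 lay above 4.43, the overall median value, on 3 or more arrays and 13 lay below it on every array. When dimmer genes were left out of the fit, Col15a1, Col4a1 and Col8a1 passed, at adjusted p of 0.0446, 0.0446 and 0.0469 (limma over 12864 genes). In that fit 181 of the 12864 genes passed, against 36 of 23279 with every gene kept.

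**Figure D3:**
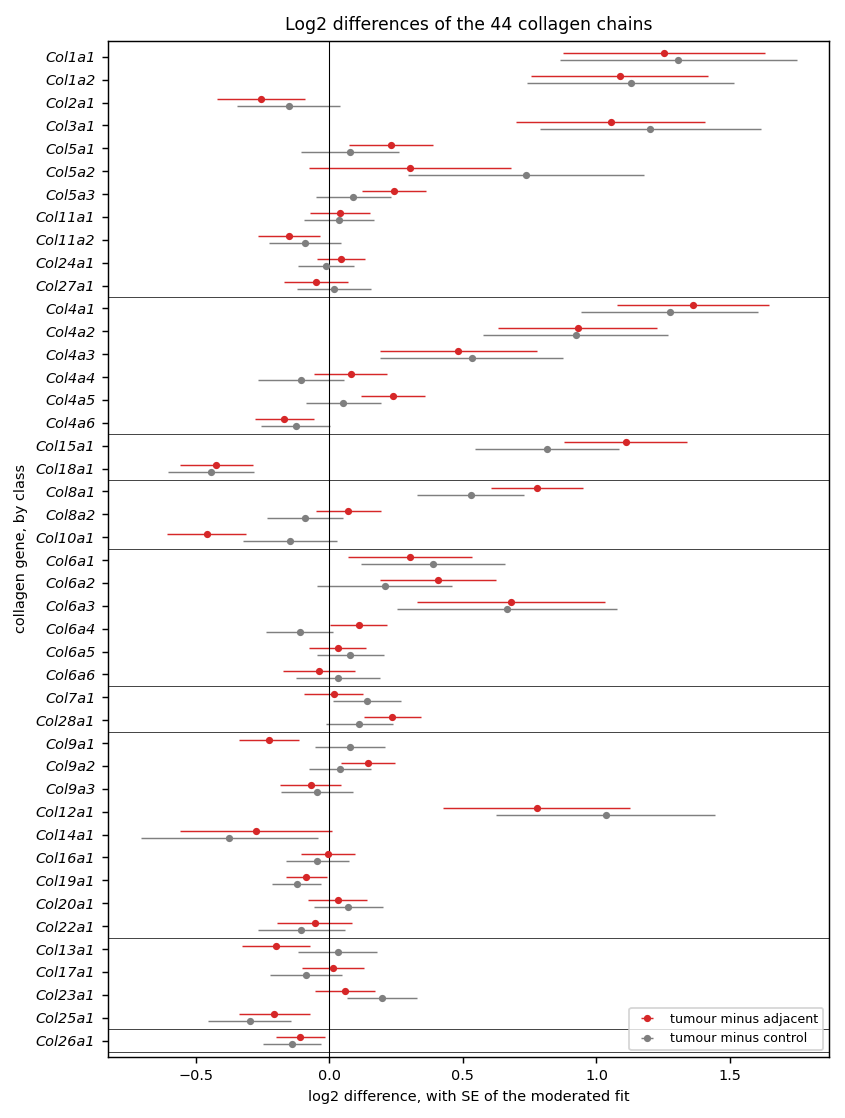
Log2 difference of means for each of the 44 collagen genes, tumour minus adjacent liver in red and tumour minus control in grey, with bars of 1 SE of the moderated fit, grouped by class. Points for Col1a1, Col1a2, Col3a1, Col4a1, Col4a2, Col15a1, Col8a1, Col12a1 and Col6a3 lie at about 0.53 or above in both comparisons. Col18a1 lies near -0.4 in both. Col4a3 (0.48 and 0.53) and Col5a2 (0.30 and 0.74) are intermediate, and most others lie close to 0.

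Against control liver the tumours gave much the same sizes. These comparisons share the tumour samples, so they are not independent of each other. None of the 44 chains passed (0.0258% of all genes did). At an unadjusted p under 0.05, 8 chains were higher and 1 lower, or 18.2% and 2.27% against 5.65% and 6.88% of all genes. Of the 44 differences 27 were above 0 (61.4%), against 42.2% over all genes. The largest differences were those of Col1a1 (1.31, SE 0.44, adjusted p = 0.232, limma), Col4a1 (1.27, SE 0.33, adjusted p = 0.136), Col3a1 (1.20, SE 0.41) and Col1a2 (1.13, SE 0.39). Col12a1 was at 1.03 (SE 0.41), Col4a2 at 0.92 (SE 0.35), Col15a1 at 0.82 (SE 0.27), Col8a1 at 0.53 (SE 0.20) and Col18a1 at -0.44 (SE 0.16). Col4a1 was the 1 chain whose tumour mice all exceeded all controls (2.27%, against 5.18% of all genes whose groups did not overlap). Without tumour 93, 242 of all genes passed, against 6 with every mouse. Among the 242 were Col4a1 (adjusted p = 0.0208, limma), Col4a2 (0.0348) and Col15a1 (0.0428). Over all values left out in turn these adjusted p reached 0.410, 0.578 and 0.502.

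Adjacent liver and control liver were compared to ask whether the non-tumoral tissue already differed. No collagen chain passed, nor did any gene, and at an unadjusted p under 0.05 1 chain was higher (2.27%, against 1.61% of all genes) and 0 lower (2.94% of all genes), with 4.55% of all genes called in either direction. The median difference was -0.01 over the 44 chains, of which 20 were above 0 (48.5% of all genes were), and -0.01 over all genes. Type I chains were nearly level, Col1a1 at 0.05 (SE 0.46) and Col1a2 at 0.04 (SE 0.40), as were Col3a1 at 0.15 (SE 0.43), Col4a1 at -0.09 (SE 0.34) and Col4a2 at -0.01 (SE 0.36). With these SEs a 2-fold difference in type I or III chains would not have passed an adjusted p under 0.05. The chain with the smallest unadjusted p was Col9a1 (0.0407), at 3.14, 3.27 and 3.24 in controls and at 3.51, 3.36, 3.49, 3.35 and 3.89 in adjacent livers. The difference was 0.30 (SE 0.13, adjusted p = 0.999, limma). Adjacent liver 1931 was the high one, and Col9a1 lay below the overall median value, 4.43, on every array. Next were Col10a1 at 0.31 (SE 0.18), Col6a4 at -0.22 (SE 0.13) and Col13a1, a membrane-spanning chain, at 0.23 (SE 0.15).

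Col6a4 was at 3.98, 3.60 and 4.17 in controls, 3.69, 3.71, 3.50, 3.74 and 3.84 in adjacent livers and 3.64 to 3.92 in tumours, so the groups overlapped. Col13a1 was at 4.57, 4.47 and 5.04 in controls, 4.86, 4.90, 5.18, 4.80 and 4.88 in adjacent livers and 4.37 to 4.91 in tumours, with control 12 among the adjacent values. Groups that did not overlap were found for 2 chains, Col9a1 and Col12a1, both higher in adjacent liver. That is 4.55%, against 2.18% of all genes higher without overlap and 4.22% in either direction. Both chains lay below the overall median value, 4.43, on every control and adjacent array, in the range where the processing compresses differences.

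The 8 tumours were then described one by one. A chain was counted where a tumour exceeded all 8 non-tumour arrays. Tumours 81 and 90 and the unnumbered tumour of mouse 121 each had 15 such chains of 44 (34.1%), where 16.2%, 17.2% and 13.7% of all genes on those arrays did so. Tumour 123 had 14 (16.1% of all genes), tumour 3 of mouse 121 had 10 (9.57%), tumour 124 had 7 (11.8%) and tumour 2 of mouse 121 had 6 (14.2%). Tumour 93 had 5 (10.5%), and Col4a3, Col4a5, Col5a3, Col7a1 and Col8a2 were its chains, none of type I. On the low side tumour 93 had the most, 9 chains below all non-tumour arrays (20.5%, against 10.7% of all genes), among them Col5a1, Col5a2, Col6a3 and Col18a1. Tumour 2 of mouse 121 had 6 (18.7% of all genes), tumour 123 had 5 (20%), tumour 81 had 4 (19.5%), the unnumbered tumour and tumour 3 of mouse 121 had 4 each (17.9% and 12.8%), and tumours 90 and 124 had 2 each (20.7% and 14.3%).

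The leading chain differed between tumours. Relative to the control mean, Col1a1 was the top chain in tumour 90 (2.54), in the unnumbered tumour of mouse 121 (2.36) and in tumour 2 of that mouse (0.81). Col12a1 led in tumour 81 (2.71), Col4a3 in tumour 123 (2.07), Col4a1 in tumour 124 (1.64) and Col6a3 in tumour 3 of mouse 121 (1.16). In tumour 93 the top chain was Col7a1, at 0.38. In tumour 124 Col4a1, at 6.62, and Col4a2, at 5.39, were above all non-tumour arrays. Col1a1, at 5.74, was above the controls but below adjacent liver 121.

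Counted by chain, Col4a1 and Col4a2 exceeded all non-tumour arrays in 7 of 8 tumour arrays, and Col1a1, Col1a2, Col12a1 and Col15a1 in 6 of 8. These 6 chains make 13.6% of the 44, against 3.13% of all genes above in at least 6 arrays. Col18a1 was below all of them in 7 of 8, the 1 chain (2.27%) to be below in at least 6, against 2.69% of all genes in at least 6 and 0.975% in at least 7. The 2 type IV chains above in 7 arrays are 4.55% of the 44, against 1.29% of all genes.

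The 3 tumours of mouse 121 included both the lowest and the highest Col8a1 value of the 8 tumours. Between them Col8a1 spanned 2.18 log2 units (4.77, 5.54 and 6.95), Col1a1 1.56 (6.05, 6.10 and 7.60), Col15a1 1.24 and Col4a1 1.17. Over all 8 tumours Col1a1 ran from 5.16 to 7.78, Col15a1 from 4.42 to 6.03 and Col4a1 from 5.09 to 6.94. The SD over the 6 tumour mice, a measure that cannot be set against such a span, was 0.41 for Col8a1 and 0.98 for Col1a1. It was 0.55 for Col15a1 and 0.66 for Col4a1. The unnumbered tumour was the highest of the 3 in each of these genes.

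In the 4 mice that gave both tissues, with the 3 tumours of mouse 121 averaged, 11 chains (25%) were higher in the tumour than in the animal's own adjacent liver in 4 of 4 mice, against 9.97% of all genes. They were Col1a1, Col1a2, Col3a1, Col4a1, Col4a2, Col8a1, Col12a1 and Col15a1 and, by smaller amounts, Col28a1 (mean 0.26), Col5a3 (mean 0.24) and Col9a2 (mean 0.12). Col18a1, Col10a1 and Col14a1 were lower in 4 of 4, which is 6.82% against 13% of all genes. For Col3a1 the average of mouse 121 covers 0.85 in the unnumbered tumour, -0.24 in tumour 2 and -0.01 in tumour 3. For Col4a1 the difference averaged 1.45 (SD 0.68, n = 4, range 0.65 to 2.30), for Col15a1 1.19 (SD 0.53, n = 4) and for Col1a1 1.28 (SD 0.95, n = 4, range 0.24 to 2.30). The Col1a1 difference was 2.30 in mouse 81 and 1.81 in mouse 123, but 0.24 in mouse 124. In mouse 121 it was 1.78 for the unnumbered tumour, 0.22 for tumour 2 and 0.27 for tumour 3. Tumour 93 and adjacent liver 1931, not counted as a pair, had Col1a1 at 5.16 and 5.24. Adjacent liver 121 had the highest Col1a1, Col1a2, Col3a1, Col6a1, Col6a2 and Col6a3 values of the adjacent livers, for example 6.02 for Col6a3.

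**Figure D4:**
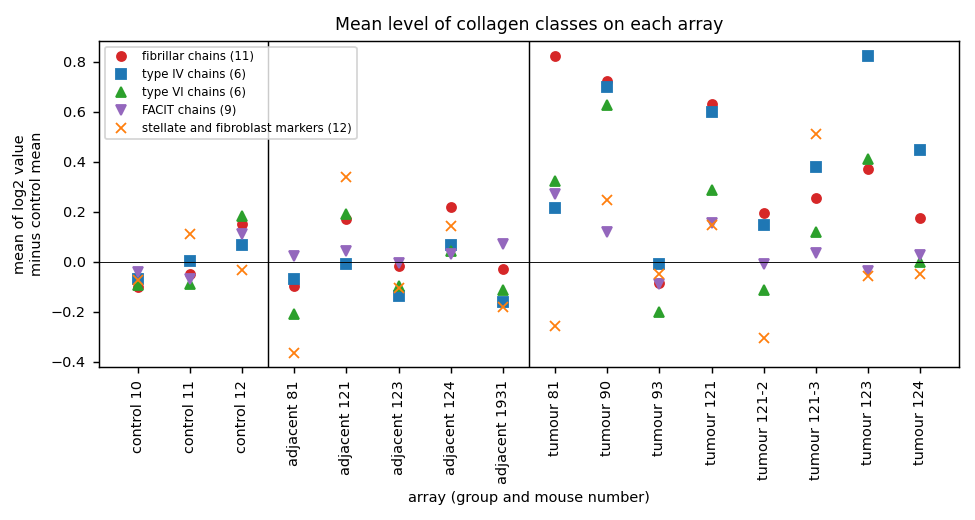
Mean over the chains of a class of the log2 value minus the control mean, for fibrillar, type IV, type VI and FACIT chains and for 12 stellate cell and fibroblast markers, on each of the 16 arrays. Fibrillar and type IV chains reach 0.82 in tumours 81 and 123 respectively and lie near 0 in tumour 93, and the stellate cell and fibroblast markers do not follow the same order.

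Chains of the same collagen type were compared across the 6 tumour mice, for 6 pairs. The test was a two-sided exact permutation over pairings, with Benjamini-Hochberg adjustment over the pairs. Col1a1 and Col1a2 correlated at Pearson r = 0.997 (exact p = 0.00139, the smallest possible, adjusted 0.00833) and Spearman rho = 1 (exact p = 0.00278, adjusted 0.0167). Leaving out tumours 93 and 90, the mice farthest from the Col1a1 median, r was 0.994. Col4a1 and Col4a2 correlated at r = 0.946 (exact p = 0.00417, adjusted 0.00833) and rho = 0.943 (exact p = 0.0167, adjusted 0.0333), with r = 0.804 without the same mice. Col6a1 and Col6a2 correlated at r = 0.921 (exact p = 0.00417, adjusted 0.00833) and rho = 0.943 (exact p = 0.0167, adjusted 0.0333), and r was 0.992 without tumours 90 and 121. Levels of all chains in a tumour share its array and its cell make-up, and the part of these was not tested.

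The other 3 pairs were less close. Col4a3 and Col4a4 had r = 0.869 (exact p = 0.0194, adjusted 0.0233) and rho = 0.886 (exact p = 0.0333, adjusted 0.04), but r = 0.616 without tumours 123 and 90 and 0.546 without tumour 123 alone. Col5a1 and Col5a2 had r = 0.653 (exact p = 0.161, adjusted 0.161) and rho = 0.886 (exact p = 0.0333, adjusted 0.04), with r = 0.858 without tumours 93 and 90. Col8a1 and Col8a2 ran in opposite directions, r = -0.857 (exact p = 0.00694, adjusted 0.0104) and rho = -0.829 (exact p = 0.0583, adjusted 0.0583), with r = -0.682 without tumours 81 and 121. With the unnumbered tumour of mouse 121 in place of that mouse's mean, r was -0.26 (exact permutation, adjusted p = 0.543).

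Genes that fold, cut and crosslink collagen were examined beside the chains. None of 18 genes of folding and modification passed an adjusted p under 0.05 between tumour and adjacent liver. Their median was 0.17, and 3 were higher and 0 lower at an unadjusted p under 0.05, where 6.95% of all genes were higher and 8.32% lower. Those were Serpinh1, the collagen chaperone HSP47 (0.72, SE 0.28, adjusted p = 0.224, limma), Plod2, a lysyl hydroxylase (0.80, SE 0.32), and P3h1, a prolyl 3-hydroxylase (0.38, SE 0.16). The prolyl 4-hydroxylases P4ha1 and P4ha2 were at 0.57 (SE 0.32) and 0.21 (SE 0.29).

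Of 11 genes that cleave propeptides or crosslink fibrils none passed (0.155% of all genes did), and 4 were higher and 0 lower at an unadjusted p under 0.05 (6.95% and 8.32% of all genes), with a median of 0.30. The lysyl oxidase Loxl2 was at 1.66 (SE 0.40, adjusted p = 0.0832, limma), the enhancer of propeptide cleavage Pcolce at 1.62 (SE 0.49), the lysyl oxidase Lox at 0.84 (SE 0.24) and the protease Tll1 at 0.30 (SE 0.11), while the main C-proteinase Bmp1 was at -0.16 (SE 0.15). Among 10 collagen receptors, with a median of 0.15 and none past the threshold, Ddr1, a receptor kinase of epithelia, was at 0.88 (SE 0.26), the integrin subunit Itga2 at 0.82 (SE 0.29), Itgb1 at 0.31 (SE 0.15) and Itga1 at 0.00 (SE 0.13). Of 8 small proteoglycans and fibril partners, median 0.13 and none past the threshold, Sparc, a collagen-binding glycoprotein, was at 1.49 (SE 0.33, adjusted p = 0.0718, limma). The fibril-binding proteoglycan Dcn was at -0.66 (SE 0.22), Bgn at 0.44 (SE 0.23) and Postn at 0.70 (SE 0.35). Mean levels of the cleavage and crosslinking list were 0.93 above the control mean in tumour 90, 0.74 in tumour 81, 0.68 in the unnumbered tumour of mouse 121 and 0.02 in tumour 93.

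Markers of cells that make collagen did not move as a block. Of 12 stellate cell and fibroblast markers, 2 were higher and 3 lower at an unadjusted p under 0.05 (6.95% and 8.32% of all genes), none passed, and the median was 0.02. The 2 higher were Acta2, smooth muscle actin of activated cells, at 0.70 (SE 0.22) and Pdgfrb at 0.62 (SE 0.23). The 3 lower were Lrat, the enzyme of retinol storage in quiescent cells, at -1.06 (SE 0.30), Hand2 at -0.46 (SE 0.17) and Hhip at -0.23 (SE 0.10). Des was at -0.01 (SE 0.13). The mean of the list ran from -0.30 to 0.51 of the control mean in tumours and from -0.36 to 0.34 in adjacent liver. Tumour 90 and the unnumbered tumour of mouse 121, highest in Col1a1 (7.78 and 7.60), had marker means of 0.24 and 0.15. Tumour 81, with Col1a1 at 7.40, had a marker mean of -0.26, and tumour 3 of mouse 121, with Col1a1 at 6.10, had the highest. Tumours 93, 123 and 124 were at -0.05, -0.06 and -0.05, and tumour 2 of mouse 121 was at -0.30. The part of these markers' cells in the collagen values was not tested.

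Of 10 endothelial markers 5 were higher and 2 lower at an unadjusted p under 0.05 (6.95% and 8.32% of all genes), none passed, and the median was 0.24. Emcn was at 1.69 (SE 0.33, adjusted p = 0.0589, limma), Cd34 at 1.67 (SE 0.33), Pecam1 at 1.03 (SE 0.26) and Cdh5 at 0.84 (SE 0.29). The lower members were the sinusoidal markers Clec4g, at -2.41 (SE 0.68, adjusted p = 0.115, limma), the largest difference in the list, and Stab2, at -1.31 (SE 0.39). The mean of the list ran from -0.49 to 0.56 in tumours and from -0.26 to 0.02 in adjacent liver. It was highest in tumour 124, with Col4a1 at 6.62 and Col1a1 within the adjacent range. It was lowest in tumour 81, where Col4a1, at 6.14, also exceeded every non-tumour array. In tumour 90 and the unnumbered tumour of mouse 121, highest in Col4a1 (6.94 and 6.75), it was 0.09 and -0.01. The mean pools members that differed in opposite directions. The part of these cells in the collagen values was not tested.

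Among the other lists, 5 cholangiocyte markers had a median of 0.26, with Sox9 at 0.89 (SE 0.28), Epcam at 0.26, Krt7 at 0.33 and Krt19 at -0.05, and tumour means from -0.31 to 1.01. Macrophage markers had a median of -0.52 over 6 genes, with Clec4f at -1.85 (SE 0.59), Cd5l at -1.58 (SE 0.72), Cd68 at 0.94 (SE 0.49) and Adgre1 at 0.24 (SE 0.53), and tumour means from -1.77 to 0.09 against -1.19 to 0.26 in adjacent liver. For 5 mesothelial markers the median was -0.09, with Msln at -0.08, Upk3b at -0.11 and Lrrn4 at 0.21. Hepatocyte markers had a median of -0.10 over 6 genes, with Alb at 0.01 (SE 0.11), Ttr at -0.12 (SE 0.08) and Cps1 at -0.25 (SE 0.15). No member of these 4 lists passed an adjusted p under 0.05.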

How the data were processed

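Total RNA obtained with Trizol was amplified with the Ovation PicoSL WTA kit and biotin-labelled, per the labels' protocols. The authors deposited log2 values, and RMA and Partek appear in the submitters' processing notes. The sources used here name no chip model and no genome build. RMA equalises array distributions and compresses differences of dim probe sets. Array medians ranged from 4.37 to 4.50, and the precision is limited by the number of arrays.

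A symbol was annotated for 23281 of 24479 probe sets (0 with several, 1198 with none). Where 2 probe sets shared a symbol the brighter was kept, which left 23279 genes. Groups and mouse numbers come from the sample titles. The 3 tumours of mouse 121 were averaged. The 3 groups were fitted together with limma 3.58.1 (R 4.3.3; lmFit, then eBayes with intensity trend, no block), with Benjamini-Hochberg adjustment over every gene. The fit was tested on simulated data. Correlations used scipy 1.17.1. Of 140 list entries 135 were matched. Members and lists were chosen with earlier results of these data known. Values are given in full for Col1a1 and Col1a2, for any chain past the threshold, for the 8 chains with the smallest p between tumour and adjacent liver, the 4 with the smallest between adjacent and control liver, and the 4 with the largest SD over tumours. Of each other list the first 2 members and up to 3 with the smallest p are named. Others, such as Col4a3, Col14a1, Col28a1, Clec4g, Stab2, Pdgfrb and Hhip, were picked once their values had been seen.

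Mouse numbers tie 4 tumour mice to their own adjacent liver. The deviations of these tissue pairs from their group means had a mean correlation of 0.08 (range 0.03 to 0.10). For pairs with different mouse numbers it was -0.01 (range -0.33 to 0.32). The highest of these, 0.32, was that of tumour 93 and adjacent liver 1931. The labels do not say whether they are from 1 animal, and they were treated as different mice. Alternatives were quantile normalization, median centring, a filter on dim genes, probe set means, no trend, array weights, a fit of only the 2 groups compared, other handling of mouse 121, mouse blocks and the value of 1 mouse in 1 group left out in turn. Mice that gave both tissues were not left out whole.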

Additional observations from a re-analysis of the deposited data

Results flagged for a closer look

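Col13a1, a membrane-spanning chain, was at 5.18 in adjacent liver 123, apart from the other 4 adjacent livers, of which the next was at 4.90. The gap made 0.729 of the range of the group, above the critical value of 0.71 for 5 samples. It was the 1 flag among 28 groups of values examined in 14 chains, where chance flags about 1 group in 20.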

How the results depend on the processing

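Of the chains, 0 passed between tumour and adjacent liver with every mouse, where 36 of all 23279 genes passed. With the filter on dim genes 3 passed (181 of 12864 genes), and with array weights per group 3 (136 of 23279 genes). With the unnumbered tumour of mouse 121 only, 2 passed (157 genes), and under a random replicate block on the animal 1, Col4a1 (206 genes). Quantile normalization, median centring, probe set means and no trend each gave 0. So did a fit of only the 2 groups compared and one with the 8 tumours as separate values. The fixed replicate block in 4 mice gave 0. Leaving out the value of 1 mouse in 1 group at a time gave 0 to 7, where 7 is the value without tumour 93, and 7 also without tumour 93 and control 10 together, a choice made after seeing the data. At an unadjusted p under 0.05, 7 to 12 chains were higher and 2 to 5 lower. Against control, these leave-outs gave 0 to 3 chains past the threshold and, at an unadjusted p under 0.05, 1 to 3 lower, and fitting only the 2 groups compared gave 2 lower. Between adjacent and control liver the count of higher chains was 0 with the filter on dim genes and 0 to 1 over the leave-outs, and that of lower chains 0 to 1. The Col5a2 difference between tumour and adjacent liver ranged from -0.03 to 0.50 over the mice left out, and was -0.0321 without tumour 81, where the sign turned. The cause of these shifts was not tested, except that the filter tests fewer genes. The Col1a1 difference between tumour and adjacent liver ranged from 1.01 to 1.53 over the mice left out, and that of Col4a1 from 1.22 to 1.59. Over the tumour mice left out in turn the Col4a3 and Col4a4 correlation ranged from 0.546, without tumour 123 (exact permutation, adjusted p = 0.317), to 0.963.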
